A study of Homo sapiens with 12 samples.

Results

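The 300 strongest stitched H3K27ac clusters of control Huh7 cells were described, with what the same coordinates held after HSF1 knockdown. Huh7 is an established human hepatocellular carcinoma (HCC) line. Cells were transfected with a negative control siRNA (siNC) or with siRNA against the heat shock factor HSF1 (siHSF1), in both cases with Lipofectamine RNAiMAX, and collected after 48 h. Each condition gave 1 H3K27ac ChIP-seq library and 1 input library, and the labels do not name which siHSF1 was used, so the differences below rest on single libraries and were not tested. A CUT&Tag library of HSF1 from untreated Huh7 cells, in which an antibody guides a transposase to the chromatin that HSF1 binds, was used as a separate readout.

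The members were chosen by the siNC signal itself. Peaks of the siNC list on chromosomes 1 to 22 and X (hg19) whose gaps were at most 12500 bp were joined into clusters. A cluster's signal was the sum over its peaks of pileup above local background times peak length, where the pileup counts the tags, extended to the fragment length, that cover the summit. The 41081 siNC peaks formed 14419 clusters, and the 300 with the highest signal were taken. The siHSF1 list held 45585 peaks, which were added up in the same 14419 intervals. In each list a cluster's value is given as its rank and as its share of the signal summed over these intervals, which does not scale directly with the depth of the library. The 7145 siHSF1 peaks (15.7%) that touched no siNC cluster are outside these totals.

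H3K27ac is the acetylation of lysine 27 on histone H3, which nucleosomes carry at active promoters and enhancers. Long runs of acetylated enhancers, often called super-enhancers, tend to lie at genes that define a cell type, and in hepatocytes these include genes of plasma proteins and of the transcription factors that drive them. HSF1 is the transcription factor that switches on chaperone genes in the heat shock response. Gene names below were placed by a list of hg19 positions written from memory, as no hg19 annotation was used here. At least 1 named gene overlapped 250 of the 300 clusters and started inside 162, and a cluster without a name may hold genes that are not on that list. The markers of other cell types (PTPRC, SPI1, COL1A1, COL1A2, COL3A1, CDH5, PECAM1 and KRT5) had a peak at the start in 0 of 8 cases in either list. By contrast, the starts of all 10 hepatocyte transcription factors looked at carried a peak in both lists.

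The clusters held 2 microRNA genes that the results below return to. MIR122, the liver's dominant microRNA gene, lay in cluster 31, and MIR21, a microRNA gene highly expressed in many carcinomas, lay in cluster 11. Their mature 5p sequences from RefSeq (GRCh38.p14) are shown with the seed, bases 2 to 8, in capitals, and the seeds differ.
miR-122-5p: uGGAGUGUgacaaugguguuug
miR-21-5p: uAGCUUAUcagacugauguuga

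The promoters of ALB, AFP, FGB and APOE are shown as examples, as each gene starts inside a cluster and makes a protein that hepatocytes secrete. The same holds for FGA, FGG, AMBP and AHSG, which are not shown. The 250 bases before each start are given from RefSeq (GRCh38.p14, plus strand): ALB chr4:73404037-73404286, AFP chr4:73435971-73436220, FGB chr4:154562730-154562979 and APOE chr19:44905546-44905795. Capitals mark matches on either strand to a FOXA core (TGTTTAC), a C/EBP palindrome (TTGCGCAA), an HNF4 site (CAAAGTCCA), a CCAAT box (CCAAT) or a TATA box (TATAAA).
ALB: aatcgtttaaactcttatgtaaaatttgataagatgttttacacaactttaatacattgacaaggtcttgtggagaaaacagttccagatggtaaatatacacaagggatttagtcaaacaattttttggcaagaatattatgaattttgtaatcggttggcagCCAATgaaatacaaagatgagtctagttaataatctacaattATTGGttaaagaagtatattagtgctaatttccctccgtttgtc
AFP: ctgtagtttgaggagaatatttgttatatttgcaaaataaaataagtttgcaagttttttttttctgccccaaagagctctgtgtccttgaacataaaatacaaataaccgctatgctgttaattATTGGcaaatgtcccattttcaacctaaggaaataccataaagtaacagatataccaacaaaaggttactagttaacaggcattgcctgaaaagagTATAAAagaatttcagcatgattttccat
FGB: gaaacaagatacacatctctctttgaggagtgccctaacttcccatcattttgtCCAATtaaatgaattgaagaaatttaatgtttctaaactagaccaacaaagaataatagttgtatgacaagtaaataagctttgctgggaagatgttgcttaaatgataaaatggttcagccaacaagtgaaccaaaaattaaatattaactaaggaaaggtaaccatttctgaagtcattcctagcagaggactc
APOE: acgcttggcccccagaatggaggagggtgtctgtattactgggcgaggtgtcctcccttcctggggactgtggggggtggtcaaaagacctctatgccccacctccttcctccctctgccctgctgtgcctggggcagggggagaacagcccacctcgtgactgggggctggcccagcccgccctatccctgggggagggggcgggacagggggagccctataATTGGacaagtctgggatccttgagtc
All 4 held a CCAAT box, found in 32.0% of 35116 promoters of this length, and AFP held a TATA box, found in 10.7%. Over the 181 promoters that could be matched among the 227 named genes starting inside a cluster, the shares were 3.31% for the FOXA core (2.98% of all promoters), 0.552% for the HNF4 site (0.325%), 34.3% for the CCAAT box, 12.7% for the TATA box and 0 of 181 for the C/EBP palindrome (0.131%). These matches describe the letters and not binding.

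The 300 clusters were 2.08% of the 14419 and held 28.4% of the siNC signal, 11.9% of its peaks and 19.4% of the bases under peaks. They spanned 15.6 Mb in all. Their width ranged from 9.87 to 251 kb with a median of 45.5 kb, against a median of 1.95 kb over all clusters. The number of siNC peaks ranged from 2 to 87 with a median of 14, against 2 over all clusters. These sizes follow from the choice by summed signal and are given as a description.

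In 160 of the 300 clusters (53.3%) a single siNC peak held over 50% of the cluster's signal. The share was 67.7% of the next 300 clusters and 86.4% of all clusters, 6185 of which held 1 peak alone. The median length of a cluster's longest peak was 8.23 kb. The longest, 31.5 kb, lay in the BCL2L1 cluster. In the MYEOV cluster, ranked 280, 1 of 2 peaks held 99.2% of the signal. In the TNS3 cluster the signal was spread instead over 68 peaks, of which the strongest held 14.7%.

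The highest cluster lay on chromosome 11 (chr11:65834640-65963527). It held the start of the sorting protein gene PACS1 and overlapped the spliceosome gene SF3B2, which starts outside it. It held 40 peaks and 0.505% of the siNC signal, and 37 peaks and 0.586% of the siHSF1 signal, where it ranked 2. The cluster at BCL2L1, which encodes the anti-apoptotic protein Bcl-xL, and the spindle gene TPX2 (chr20:30247190-30334537) ranked 2 with 0.432% and ranked 1 in the siHSF1 list with 0.592%. The cluster at TNS3, which encodes the focal adhesion protein tensin 3, ranked 3 in both lists. These were also the 3 highest clusters by siHSF1 signal.

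The cluster of ALB and AFP (chr4:74240732-74324001) ranked 4. ALB encodes serum albumin and AFP encodes alpha-fetoprotein, the fetal counterpart that many liver cancers make again. It held 21 siNC peaks and 53 siHSF1 peaks, and its share was 0.304% with siNC and 0.265% with siHSF1, where it ranked 9. The peak at the AFP start reached a fold enrichment over background of 31.1 with siNC and 18.9 with siHSF1, and the peak at the ALB start 16.9 and 12.9. A further cluster, 10.3 kb wide, lay upstream of ALB and ranked 274, and 312 in the siHSF1 list.

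Cluster 5 lay on chromosome 11 (chr11:69231561-69315240), between MYEOV and the cell cycle gene CCND1, and touched neither gene. It ranked 10 in the siHSF1 list, with a share of 0.263% against 0.301%. The cluster that overlapped CCND1 itself ranked 338 and was not a member. Cluster 6 at FNDC3B ranked 13 in the siHSF1 list, and cluster 7 at TGFBR2, the type II receptor of TGF-beta, ranked 5. With the siHSF1 list stitched by itself, the highest cluster overlapping each of them ranked 17 and 29.

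Among the other clusters to rank 15, those at the apoptosis gene PAWR (rank 8 in siNC, 4 in siHSF1), CTNND1, which encodes p120 catenin (9 and 8), the actin crosslinker gene ACTN4 (10 and 6) and VMP1 with MIR21 (11 and 7) ranked higher in the siHSF1 list. Those at ABHD2 (12 and 20), MEGF9 and FBXW2 (13 and 30) and RASSF3 (14 and 23) ranked lower. The cluster at the simple-epithelial keratin genes KRT8 and KRT18 ranked 15 and 14. The shares of these clusters stayed between 0.169% and 0.382% in the siHSF1 list. When the siHSF1 list was stitched by itself, the highest overlapping cluster ranked 36 at VMP1, 204 at MEGF9 and 40 at RASSF3. It ranked 4 at PAWR, 6 at CTNND1, 5 at ACTN4, 16 at ABHD2 and 23 at KRT8.

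**Figure D1:**
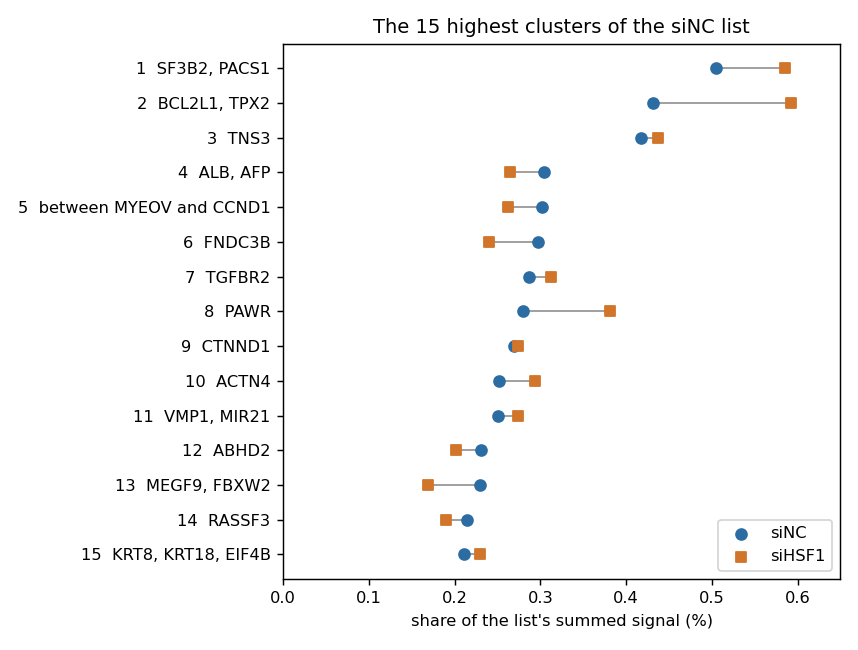
Share of each list's summed H3K27ac signal (x axis, %) held by the 15 highest clusters of the siNC list, named by their genes, with circles for the siNC library and squares for the siHSF1 library (1 library each, no error bars). The PACS1, BCL2L1 and TNS3 clusters lead in both lists, and the PAWR cluster moves from 0.279% to 0.382%.

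Of the hepatocyte secreted protein genes, 8 of 19 lay in a member. Besides ALB and AFP these were the fibrinogen genes FGA, FGB and FGG, which share cluster 27 (rank 46 in the siHSF1 list), the lipid carrier gene APOE in cluster 98 (354), the gene of the bikunin precursor AMBP in cluster 237 (233) and the fetuin-A gene AHSG in cluster 249 (173). The remaining 11 ranked lower or carried no peak. VTN lay in a cluster ranked 548, APOB 745, APOA1 and APOC3 together 1599, SERPINA1 2061, TF 2278, APOH 2887, APOA2 3458 and RBP4 5449. TTR and HP overlapped no siNC cluster. A peak stood at the start of 17 of the 19 genes in both lists.

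Of the 10 hepatocyte transcription factor genes, 5 lay in a member. HNF4A, a nuclear receptor that hepatocytes depend on, was covered by cluster 20 (chr20:42983669-43066236) with 26 siNC and 37 siHSF1 peaks. Its share was 0.194% with siNC and 0.150% with siHSF1, where it ranked 44. FOXA2, PROX1, CEBPA and FOXA3 lay in clusters 95, 99, 103 and 235, with siHSF1 ranks of 66, 110, 96 and 242. Clusters 73 and 82 lay next to the FOXA2 cluster on chromosome 20, both on its lower-coordinate side, and ranked 59 and 116 in the siHSF1 list. NR1H4, ONECUT1, FOXA1, NR5A2 and CEBPB lay in clusters ranked 342 to 2639 in the siNC list.

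The MIR122 cluster (chr18:56057572-56119213) ended just past the microRNA gene and reached the ubiquitin ligase gene NEDD4L on its other side. It held 20 siNC and 17 siHSF1 peaks and ranked 48 in the siHSF1 list, with shares of 0.160% and 0.142%. The MIR21 cluster (chr17:57826524-57936916) held 27 and 46 peaks, with shares of 0.251% and 0.274%.

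The growth, stress and chaperone lists are given by their counts. Of the 16 oncofetal and growth genes, EGFR, the receptor of epidermal growth factor, overlapped clusters 41 (siHSF1 rank 34) and 236 (236), and PEG10, an imprinted gene often raised in HCC, lay in cluster 218 (290). CCND1 and IGF2BP1 came next at ranks 338 and 347, while MYC ranked 3053 and MYCN 6578. Each rank is that of the cluster overlapping the gene. A distant element, such as the super-enhancer that the authors report upstream of MYCN, does not enter it. Among 5 immediate early and stress factor genes, XBP1, a factor of the unfolded protein response, lay in cluster 29 (22). Among 3 long noncoding RNA genes, MALAT1 lay in cluster 299 (188). None of the 10 chaperone genes lay in a member, and HSPA1A came highest with a rank of 853. The members were 2.08% of all clusters. What share of all genes lies in a member was not computed, so nothing is read from the counts of the gene lists. Of these chaperone genes 9 carried a siNC peak and 8 a siHSF1 peak at the start.

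**Figure D2:**
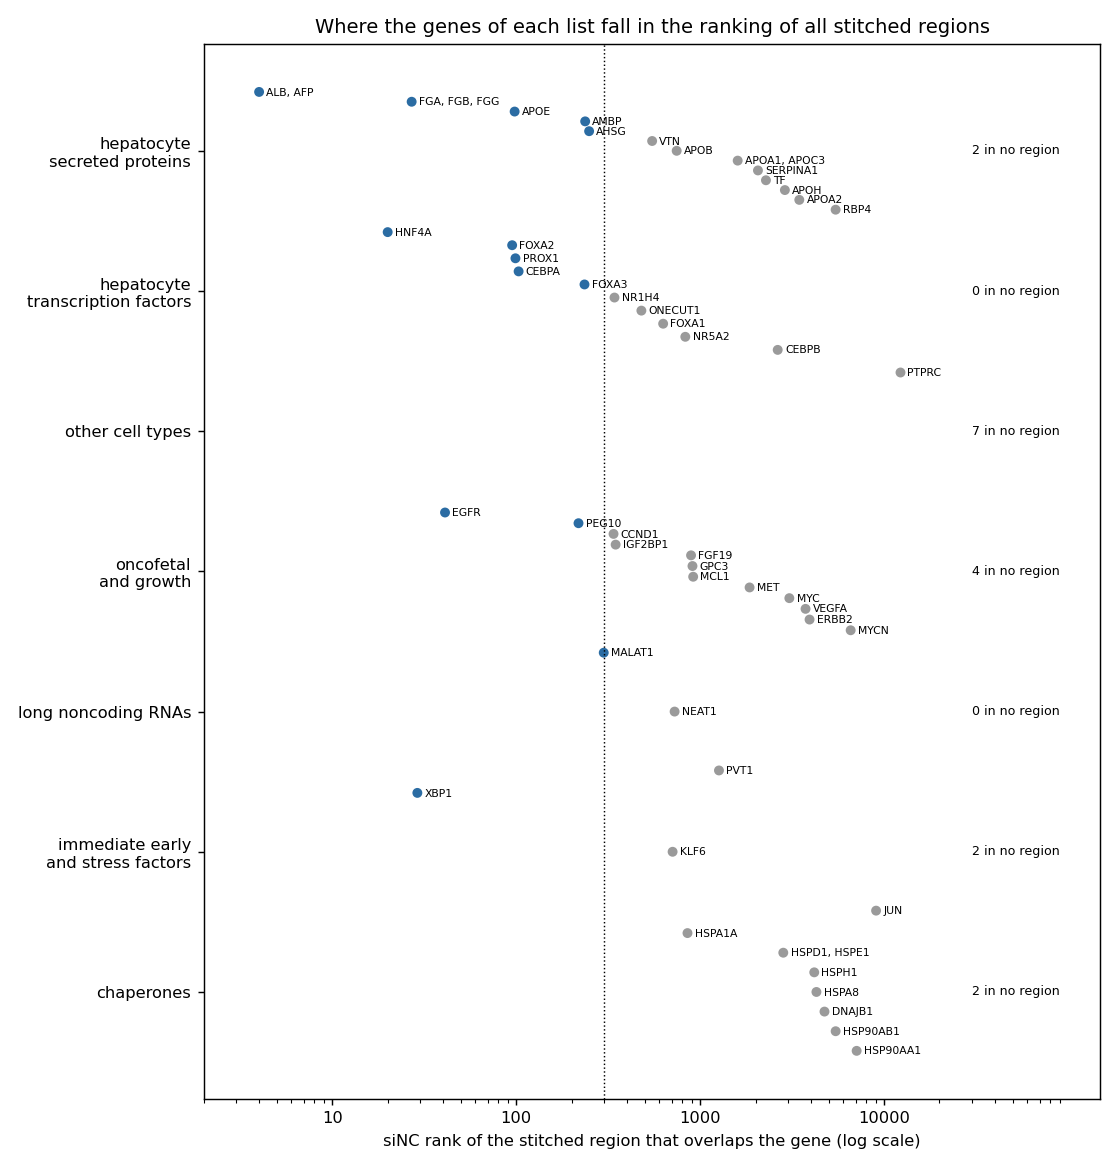
siNC rank (x axis, log scale) of the stitched region that overlaps each gene of the 7 lists, in blue for the 300 highest clusters and in grey for lower regions, with the dotted line at the last member and the number of genes in no region at the right. ALB with AFP at rank 4 and HNF4A at 20 lead their lists, and no chaperone gene lies left of the line.

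Within the siHSF1 list 237 of the 300 clusters were again among the 300 highest, and the median rank was 156. The next 300 clusters of the siNC list, given for comparison, had a median siHSF1 rank of 487. All 300 clusters held at least 3 siHSF1 peaks. Of the 10 highest siNC clusters 9 were among the 10 highest siHSF1 clusters, and of the 100 highest 83 were among the 100 highest. By siHSF1 signal, 99 of the clusters ranked 1 to 100 were within the 300 highest, 80 of those ranked 101 to 200 and 58 of those ranked 201 to 300. The exception in the first 100 was the APOE cluster. Of the 63 clusters that ranked below 300 in the siHSF1 list, 57 ranked within the first 600, and the lowest rank was 829. In their place came 63 clusters with siNC ranks down to 1172.

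**Figure D3:**
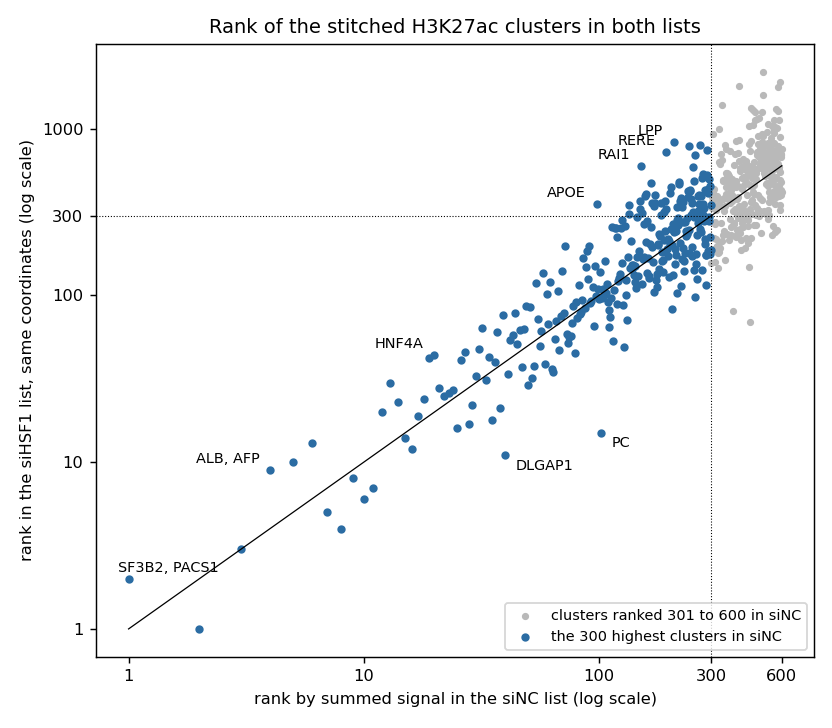
Rank by summed signal in the siNC list (x axis) against rank in the siHSF1 list within the same coordinates (y axis, both log scale), with the 300 highest siNC clusters in blue, the next 300 in grey, the solid line at equal ranks and dotted lines at the last of the 300. The points spread out with falling rank, and the PC cluster (102 and 15) and the APOE cluster (98 and 354) stand far from the line.

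The last members and the next clusters were close in value. Clusters 298 (GHRL and SEC13), 299 (MALAT1) and 300 (LGALS8) held 0.0527%, 0.0524% and 0.05215% of the siNC signal, with siHSF1 ranks of 177, 188 and 349. The 3 clusters that followed, the first of them at SLC38A2, held 0.0518%, 0.0518% and 0.0516%, with siHSF1 ranks of 156, 362 and 391.

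A share that differed by 2-fold or more between the lists was rare among the members. It was lower in the siHSF1 list by at least that much in 4 of 300 clusters, against 14.7% of the 10503 clusters with peaks in both lists, and higher in 1, against 9.94%. Among the next 300 clusters the counts were 12 and 2. The siNC signal chose the members and enters this ratio, and larger clusters sum more peaks, so nothing is read from the contrast with the background. The log2 ratio of the shares (siHSF1 over siNC) had a median of 0.02 in the members and -0.02 over the 10503 clusters.

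The lowest ratios were at the adhesion protein gene LPP (log2 ratio -1.19, ranks 208 and 829), the corepressor gene RERE (-1.07, 194 and 726), the N-cadherin gene CDH2 (-1.002, 241 and 786) and RAI1 (-1.0004, 151 and 595). At LPP, 20 siNC peaks covered 27.4 kb and 16 siHSF1 peaks covered 8.10 kb. At RERE the covered lengths were 28.2 kb and 9.62 kb. Next came the kinase gene TLK1 (-0.96), NHSL1 (-0.83), the cytokine receptor kinase gene JAK1 (-0.83), APOE (-0.82), UQCC1 (-0.72) and LIMD1 (-0.66).

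The APOE cluster (chr19:45391339-45458583) held the starts of TOMM40, APOE, APOC1, APOC4 and APOC2, a group of apolipoprotein genes next to a mitochondrial import gene. Its share was 0.0889% with siNC and 0.0503% with siHSF1. Its strongest siNC peak was 7.49 kb long with a pileup of 35, and its strongest siHSF1 peak was 2.92 kb long with a pileup of 18. At the APOE start itself the peak had a pileup of 16 tags with siNC and 15 with siHSF1. Its fold enrichment was 5.80 and 7.97, over a local background of 1.93 and 1.01 tags.

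The highest ratio was at PC, which encodes pyruvate carboxylase, the enzyme that feeds gluconeogenesis (chr11:66704116-66742023, log2 ratio 1.32, ranks 102 and 15). Its siHSF1 signal came to 72.4% from a single peak of 10.3 kb with a fold enrichment of 16.3. Over about the same stretch the siNC list had separate peaks, of which the strongest was 3.55 kb long with a fold enrichment of 6.99. The local background under that siNC peak was 7.73 tags and under the siHSF1 peak 2.13 tags. The part of the background and of peak merging in this difference was not tested. When peak heights were summed without their length, the log2 ratio was -0.27.

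**Figure D4:**
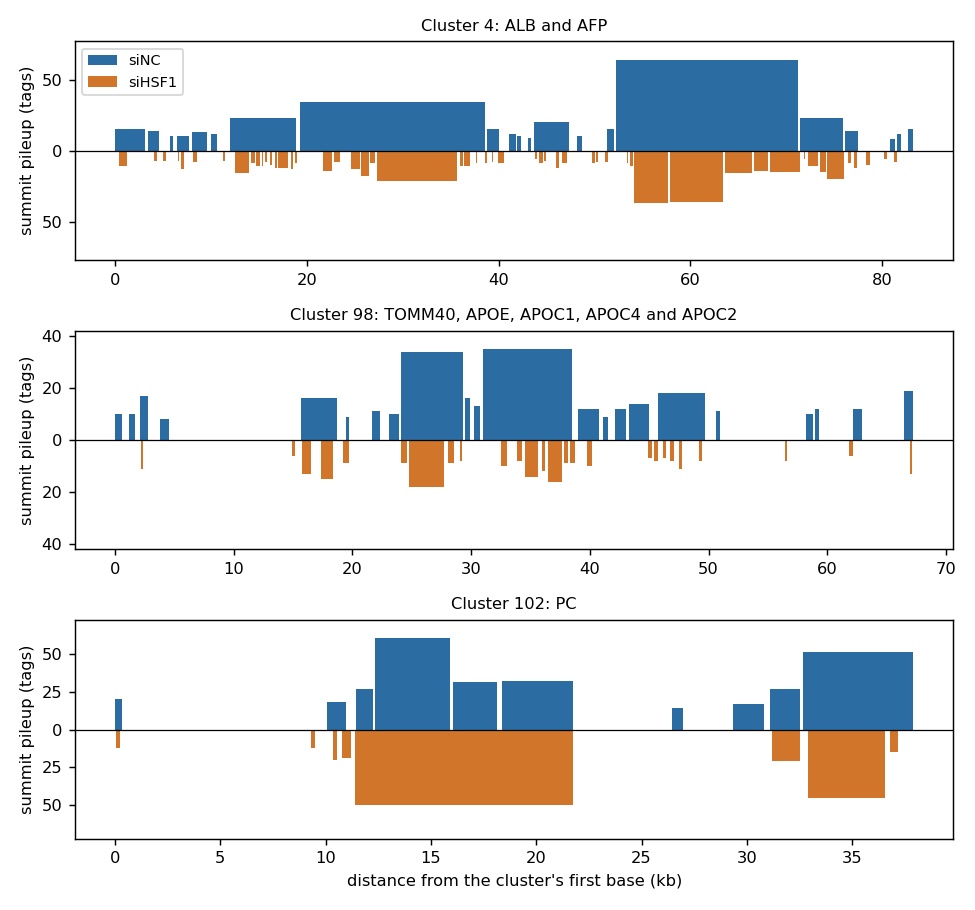
Peaks of 3 clusters along the distance from the cluster's first base (x axis, kb), with bars as wide as each peak and as high as its summit pileup in tags, upward for siNC and downward for siHSF1. In cluster 98 the siHSF1 bars are narrow and at most 18 tags high, and in cluster 102 a single siHSF1 bar of 10.3 kb faces several siNC bars.

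The next highest ratios were at DLGAP1 (0.88, ranks 40 and 11), at MYRF, TMEM258 and the DNA repair nuclease gene FEN1 (0.86, 128 and 49), at the splicing regulator gene PTBP1 (0.76, 256 and 98), at SFXN5 (0.74), at the transcription repressor gene BACH2 (0.70), at ZMYND8 (0.69), at the ephrin receptor gene EPHA2 (0.60), at KYAT1 and LRRC8A (0.60) and at CLCF1, RAD9A and PPP1CA (0.58). At MYRF the strongest peak had similar lengths, 7.14 kb with siNC and 7.57 kb with siHSF1, but fold enrichments of 7.40 and 24.8. The local background at its summit was 3.87 and 0.77 tags, and its part was not tested.

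The direction of some of these differences depended on how the signal was summed. Heights summed without length count each peak once, so they also depend on the number of peaks. That number was 3 with siNC and 11 with siHSF1 at NHSL1, and 10 and 8 at PC. The parts of peak length and peak number were not tested. With heights summed without length, 5 of the 10 clusters with the lowest ratios stayed below 0, and CDH2 (0.03), RAI1 (0.22), LIMD1 (0.24), TLK1 (0.28) and NHSL1 (1.46) lay above 0. Of the 10 with the highest ratios, 9 stayed above 0 and PC did not. With pileup times length, fold enrichment times length or peaks with -log10 q of at least 5, all 20 kept their direction. Summed heights also turned the ratio positive at ALB and AFP (-0.20 to 1.07), the fibrinogen genes (-0.20 to 0.86) and HNF4A (-0.37 to 0.38). The ratio kept its sign at BCL2L1 (0.39), PAWR (0.57) and MEGF9 (-0.05).

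The same clusters were cut into more and shorter peaks in the siHSF1 list. More siHSF1 than siNC peaks were found in 238 of the 300 clusters, fewer in 53 and the same number in 9, and over all clusters with both kinds of peak 33.1% had more. Among the next 300 clusters it was 222 of 300. The median number per cluster was 14 with siNC and 18 with siHSF1. The bases covered by siHSF1 peaks were fewer in 300 of 300 clusters, against 93.5% of all, with a median ratio of 0.643 against 0.536. In the next 300 clusters they were fewer in 299, with a median ratio of 0.635. The median length of a cluster's longest peak was 8.23 kb with siNC and 3.23 kb with siHSF1.

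The file headers give a fragment length of 297 bp for the siNC tags and of 175 bp for the siHSF1 tags, and a longer extension lengthens peaks and raises pileups. Its part in the number and length of peaks was not tested. The 2 libraries kept 9795121 and 10793650 tags after duplicate removal. The median highest pileup of a member was 41 tags with siNC and 28 with siHSF1. The highest fold enrichment, which sets the pileup against the background of the same library, had medians of 16.7 and 15.1. It was higher in the siNC list in 192 members (64.0%, against 52.3% over all clusters with peaks in both lists). Among the clusters ranked next below the members, given for comparison, it was higher with siNC in 203 (67.7%).

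**Figure D5:**
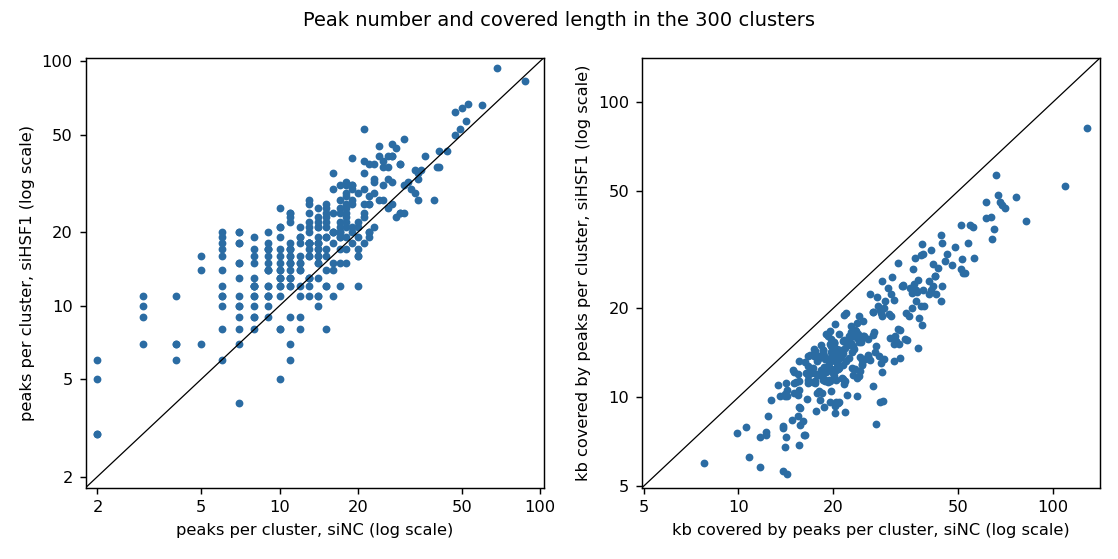
Number of peaks (left) and kb covered by peaks (right) in each of the 300 clusters, siNC on the x axis and siHSF1 on the y axis (log scales), with the line at equal values. In 238 clusters the siHSF1 list has more peaks, and in all 300 its peaks cover fewer bases.

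The members were spread unevenly over the chromosomes. Chromosome 20 held 20 of them (6.67%) and 2.60% of all clusters, chromosome 9 held 22 (7.33% and 4.01%), chromosome 3 held 30 (10.0% and 7.28%) and chromosome 19 held 15 (5.00% and 2.95%). Chromosome 1 held 24 (8.00% and 9.63%), chromosome 8 held 5 (1.67% and 3.80%), X held 2 and chromosome 21 held 0. The median local background of siNC peaks was 1.75 tags for chromosome 20, 1.44 for chromosome 3, 1.23 for chromosome 9 and 1.15 for chromosome 19, against 1.15 over all peaks. In the siHSF1 list it was 1.01 for chromosome 20, 0.96 for chromosome 3 and 0.856 for both chromosomes 9 and 19, against 0.84. Its part in the number of members was not tested. By fold enrichment times length 15 of the 300 highest clusters were on chromosome 20, and by summed height 14. Of its 20 members, 17 ranked within the 300 highest of the siHSF1 list.

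Members also lay near each other. Another member was within 100 kb of 56 of the 300, and the same held within the next 300 clusters, which are narrower, for 30. On chromosome 20 clusters 22, 165 and 267 lay upstream of BMP2, the gene of a bone morphogenetic protein, with siHSF1 ranks of 25, 203 and 300. On chromosome 11, 9 members lay between 65 and 70 Mb within 4.07 Mb. They were those at MALAT1, at PACS1, at BRMS1, at PC, at CLCF1, at CHKA, at MYEOV, cluster 200 and cluster 5. Together they held 1.31% of the siNC and 1.53% of the siHSF1 signal, and 7 of the 9 stayed within the 300 highest. CHKA (184 and 358) and cluster 200 (412) did not. The stretch held 71 clusters in all. The median local background of a member's siNC peaks was 1.08 tags at MALAT1 and 2.01 to 4.83 tags at the other 8, against a median of 1.38 over the members, and its part in their ranks was not tested. By fold enrichment times length, which divides by that background, PC ranked 488 and CLCF1 678 in the siNC list.

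HSF1 itself was looked up at the starts of the genes in the clusters, by gene name on hg38, where the CUT&Tag list has 7147 peaks. Of the 319 named protein-coding genes that overlapped a member, 112 (35.1%) had an HSF1 peak within 1 kb of the canonical start, against 23.1% of 19960 protein-coding genes. Of the 223 whose start lay inside a member, 90 (40.4%) had one. The named genes are those of the hand-written position list, which was not checked against an hg19 annotation, and how far the choice of genes moves the share was not tested. The 19960 genes were not limited to those with an H3K27ac peak at the start, and no such set was compared. The HSF1 peaks at member genes had a median fold enrichment of 6.69 and those at all protein-coding starts 7.30.

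Of the 20 named coding genes that overlapped the 15 highest clusters, 11 had an HSF1 peak at the start, against 23.1% of all protein-coding genes. That start lay inside the cluster for 8 of the 11 and outside it for ABHD2, SF3B2 and PAWR. The fold enrichment was 11.8 at ABHD2, 10.2 at TGFBR2, 10.1 at TPX2, 9.65 at EIF4B, 7.78 at SF3B2 and 5.77 at BCL2L1. PACS1, TNS3, ALB, AFP, FNDC3B and CTNND1 had no HSF1 peak at the start. In the lower clusters TOMM40 (11.5), PTBP1 (9.54), PC (9.15), FGG (8.72), FOXA3 (7.31), XBP1 (6.67), FGA (6.36), HNF4A (5.36) and AMBP (4.94) had one. APOE, FGB, FOXA2, CEBPA, PROX1, AHSG, PEG10 and EGFR had none within 1 kb. Genes with an HSF1 peak lay in clusters with a share ratio above 0 (PC and PTBP1) and below 0 (TOMM40, FGA and FGG, and HNF4A). At TOMM40, in the APOE cluster, the ratio was -0.82. With heights summed without length the ratio was -0.27 at PC and 0.46 at PTBP1. It was -0.01 at TOMM40, 0.86 at FGA and FGG and 0.38 at HNF4A.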

How the data were processed

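H3K27ac ChIP-seq peak lists of siNC and siHSF1 cells were used. The authors called peaks for each library against its input with MACS 2.1.1 at a q-value of 0.05, and per the file headers reads were aligned with BWA to hg19 (the methods give Bowtie2 and hg38). The deposited pileup is a signal (extended tags at the summit, unscaled), fold enrichment as the authors deposited it is a ratio (pileup plus 1 over background plus 1), and the deposited −log10 q-value comes from the caller. The HSF1 CUT&Tag list (MACS 2.1.4, hg38) was joined by gene name only, with GENCODE release 44, and no coordinate was converted.

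The background was recovered as (pileup + 1)/fold enrichment − 1. Each siHSF1 peak was added to the siNC cluster with which it shared most bases. The 389 hg19 gene positions were written by hand from memory and kept where the length was 0.85 to 1.15 times that on hg38 or where 1 end was shifted by the same amount as that of a neighbouring gene, within 1 kb. This left out 3 genes, and 332 passed both checks. Of the 386 used, 85.2% had a siNC peak within 1 kb of the start, and 323 overlapped 250 of the 300 clusters. The clusters and gene lists were chosen with earlier results of these data known. Clusters were named by rule (the 15 highest, the 10 largest differences each way, 3 on each side of the last rank, and those of listed genes, of which 2 are not reported here), and other clusters named were picked after their values were seen. With 1 library per condition no test was made. Stitching and signal were tested on simulated data. Python 3.11.15, numpy 2.4.6, pandas 2.3.3 and matplotlib 3.10.9 were used.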

Additional observations from a re-analysis of the deposited data

How the results depend on the processing

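Stitching at 5 or 20 kb, 4 other definitions of the signal or peak filter, leaving out chromosome X and stitching the siHSF1 list by itself were tried. A count or median within 1.5 times the value reported was taken as unchanged. The clusters kept within the 300 highest siHSF1 clusters ranged from 220 to 237, and their median siHSF1 rank from 154.5 to 166.5. The clusters with a share at least 2-fold lower numbered 2 by pileup times length, against 4. Those at least 2-fold higher numbered 2 with stitching at 5 kb, 2 by fold enrichment times length, 2 with -log10 q of at least 5 and 4 with summed heights, against 1. Summed heights also gave a share of the siNC signal of 15.5% against 28.4%, and overlapped the members in 202 of 300 clusters, the fewest of these alternatives. Stitching at 5 kb gave a median width of 27.8 kb against 45.5 kb. The stricter q-value gave medians of 7 siNC and 9 siHSF1 peaks against 14 and 18. With summed heights the log2 ratio changed sign, among the largest differences, at clusters 241 (0.0323), 151 (0.22), 270 (0.28), 289 (1.46), 72 (0.24) and 102 (-0.27). It also changed sign at clusters 4 (1.07), 20 (0.38) and 27 (0.86), and kept it at clusters 2, 8 and 13, the others recomputed. The share of named genes with an HSF1 peak was 41.7% at any annotated start (4899 of all 19616 coding genes) and 41.4% within 5 kb (25.4%). These 2 settings, the restriction to genes that start inside a cluster and the counts on chromosome 20 were added after seeing the data. No paired analysis was possible because each condition has 1 ChIP-seq library. Depth limits the weakest clusters, whose highest pileups were 6 tags (siNC) and 5 tags (siHSF1), more than the members, whose highest pileups were 23 to 122 and 16 to 91 tags.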
